A study of Homo sapiens with 29 samples.

Results

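The genes described here are 50 genes of the mitotic spindle and kinetochore, chosen by function and not by a threshold on these arrays. They comprise the mitotic kinesins, the proteins of the centromere and kinetochore, the spindle checkpoint, the mitotic kinases with the chromosomal passenger complex, the cyclins with CDK1 and its phosphatase, the partners of the anaphase-promoting complex with securin, the proteins that assemble the spindle and shape the chromosomes, and the proteins of cytokinesis. Probes were named through RefSeq accessions, and a gene was represented by the probe with the highest mean in the authors' normalized matrix. A probe was named for 48 of the 50 genes, out of 22439 genes named in all, and all 48 passed the filter on dim probes, out of 18338 genes that did. CENPM and PLK1 had no probe named in this way and were not analysed here.

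LHCN-M2 is a human myoblast line made immortal by telomerase and CDK4, so all groups share an added cell-cycle kinase. Cells were transfected with 20 nM of a control siRNA (siControl) or of an siRNA against ZNF148 (siZNF148), a zinc finger transcription factor that binds GC-rich DNA. RNA was taken in growth media at 24 h from subconfluent cultures and at 48 and 96 h from confluent cultures, and in differentiation media, which lack growth factors, at 48 and 96 h. There were 3 arrays in each of the 10 groups of siRNA, media and hour except for siControl at 96 h in growth media, which had 2. The paper gives the hours in growth media as hours of ZNF148 knockdown. Its methods give differentiation media 2 days after transfection, so the same hour in both media may not be the same time since transfection. Levels are quantile-normalized log2 signals of 1-colour Agilent arrays, on which 1 unit is a 2-fold difference, and log2 fold changes are siZNF148 minus siControl at the same hour and in the same media unless stated. A gene was called changed at a limma adjusted p under 0.05, over all probes tested, together with a change of more than 2-fold. In RNA from whole cultures, fewer cells in mitosis and less mitotic RNA per cell cannot be told apart.

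In a dividing cell, CDK1 bound to cyclin B starts mitosis, and kinesins and spindle proteins build a bipolar spindle of microtubules. Kinetochores assemble on centromeres that carry the histone variant CENPA and hold the microtubule ends through the NDC80 complex, while checkpoint proteins at unattached kinetochores keep CDC20 from activating the anaphase-promoting complex. That complex, with UBE2C as its ubiquitin-conjugating enzyme, then marks cyclin B and securin for destruction, chromosomes part, and the centralspindlin kinesin KIF23, PRC1, ECT2 and anillin cleave the cell. Myoblasts leave the cell cycle before they fuse into myotubes. Many mitotic genes carry in their promoters the cell cycle genes homology region, a short element read by the DREAM and MuvB complexes, together with CCAAT boxes read by NF-Y.

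The targeted transcript was lower in all 5 comparisons. ZNF148 read 9.44, 9.46 and 9.32 with siControl and 7.02, 6.95 and 7.22 with siZNF148 at 48 h in differentiation media, and its log2 fold change there was -2.34, between those of -1.53 at 24 h in growth media and -2.74 at 96 h in differentiation media. The share of probes well above background ran from 41.5% to 56.5% per array. The 24 h arrays shared a slide and a scan of their own, whereas later arrays were spread over 3 further slides from a different scan, so that the 24 h level against any later level cannot be told apart from slide and scan. Of 9 myoblast markers, which include MYOD1 and DES, 8 passed the background mark throughout, well above it on all arrays. The same held for 5 of 20 markers of differentiated muscle, and their mean log2 signal ran from 4.80 on a 24 h array to 15.63 on a siZNF148 array at 96 h in differentiation media. The siControl array replicate 1 at 48 h in growth media stood apart, with a muscle marker mean of 13.43 against 7.34 and 7.29 on the other two arrays of its group. Lists of 4 or 5 tested markers each of endothelial, leukocyte, epithelial, fibroblast and smooth muscle cells had 1, 2, 2, 3 and 2 genes well above background on every array.

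Promoter sequence was read for 43 of the 50 genes from windows of 250 bases before to 50 bases after the transcription start (RefSeq, GRCh38.p14). The core of the cell cycle genes homology region was searched as TTTGAA or TTCGAA, and the CCAAT box as CCAAT, on both strands. TTTGAA reads TTCAAA and CCAAT reads ATTGG on the other strand, TTCGAA is its own reverse complement, and CCAAT and ATTGG can share bases. A core was present in 32 of the 43 windows (74.4%), against 16.6% of all 27305 promoter windows. CCAAT was present in 34 (79.1%), against 35.7% of all windows, and both in 27 (62.8%), against 6.58%. Of a list of other mitotic genes 55.6% of the windows held a core, and of a list of kinesins outside the members 4.76%. A match is a string of letters and not a measured binding site.

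The 130 bases before the start of 8 members are shown 5′ to 3′ on the strand of the gene, with cores and CCAAT boxes of either strand in capitals. CDC20 and CCNB1 were among the 7 members that fell in every comparison after 24 h, KIF11 and PRC1 are members of other roles that fell in growth media, KIF23 and ANLN rose at 48 h in differentiation media, and CENPI and KIF18B had the least typical profiles.
CDC20 (chr1:43358851-43358980, plus strand): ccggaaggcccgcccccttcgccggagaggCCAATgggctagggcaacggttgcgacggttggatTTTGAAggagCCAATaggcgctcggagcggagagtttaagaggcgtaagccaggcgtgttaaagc
CCNB1 (chr5:69167020-69167149, plus strand): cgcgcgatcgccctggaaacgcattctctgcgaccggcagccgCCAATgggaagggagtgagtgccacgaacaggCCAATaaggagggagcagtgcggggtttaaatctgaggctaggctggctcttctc
KIF11 (chr10:92593000-92593129, plus strand): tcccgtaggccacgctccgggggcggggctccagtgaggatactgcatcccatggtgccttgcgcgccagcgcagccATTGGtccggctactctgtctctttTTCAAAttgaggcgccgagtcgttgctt
PRC1 (chr15:90994536-90994665, minus strand): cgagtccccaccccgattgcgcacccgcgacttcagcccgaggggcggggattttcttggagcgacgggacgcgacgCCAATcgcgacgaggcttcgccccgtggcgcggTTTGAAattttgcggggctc
KIF23 (chr15:69414219-69414348, plus strand): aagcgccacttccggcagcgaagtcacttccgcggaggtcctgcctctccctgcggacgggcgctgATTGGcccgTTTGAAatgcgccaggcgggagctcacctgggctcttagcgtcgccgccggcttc
ANLN (chr7:36389732-36389861, plus strand): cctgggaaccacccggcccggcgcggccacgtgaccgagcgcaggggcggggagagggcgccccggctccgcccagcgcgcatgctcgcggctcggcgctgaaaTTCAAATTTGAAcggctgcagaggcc
CENPI (chrX:101100928-101101057, plus strand): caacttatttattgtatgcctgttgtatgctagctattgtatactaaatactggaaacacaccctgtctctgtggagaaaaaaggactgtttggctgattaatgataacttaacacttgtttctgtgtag
KIF18B (chr17:44947774-44947903, minus strand): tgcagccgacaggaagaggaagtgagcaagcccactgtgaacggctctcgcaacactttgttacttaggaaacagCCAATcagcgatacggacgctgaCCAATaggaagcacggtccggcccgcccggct
In these stretches CDC20 held a core between CCAAT boxes, KIF11, PRC1 and KIF23 held a core and a single box, and ANLN held adjoining cores without a box. CCNB1 and KIF18B held CCAAT boxes only, and CENPI neither. A further core of KIF18B lay after its start, at position 3, and a further core of CDC20 at position -178. Within the members, the median log2 fold change at 96 h in growth media was -4.81 over the 31 measured members with a core and -4.26 over the 11 without. At 48 h in differentiation media these medians were 0.06 and -0.11. For CCAAT the order at 96 h in growth media was the other way. The medians were -4.46 over the 33 measured members with a box and -4.96 over the 9 without. At 48 h in differentiation media they were -0.03 and -0.05. These differences were not tested.

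The mean level of the measured members gave the order of the groups. With siControl in growth media the mean log2 signal of the members per array was 11.24, 11.24 and 11.26 (24 h), 10.67, 11.18 and 11.24 (48 h), then 10.96 and 10.92 (96 h). With siZNF148 it was 11.67, 11.69 and 11.61 (24 h), 7.99, 7.89 and 7.62 (48 h), then 6.52, 6.66 and 6.57 (96 h). The siZNF148 arrays were thus the higher ones at 24 h and the lower ones at both later times, with no overlap at any time. In differentiation media at 48 h the siControl arrays read 6.50, 6.66 and 6.59 and the siZNF148 arrays 6.58, 6.65 and 6.74, and the groups overlapped. At 96 h in differentiation media they read 7.95, 8.10 and 7.98 against 5.41, 5.11 and 5.11, apart again. In order of the group means, siZNF148 and then siControl at 24 h led, followed by siControl at 48 and 96 h in growth media, which overlapped. Next came siControl at 96 h in differentiation media and siZNF148 at 48 h in growth media, which also overlapped, then 3 groups with means between 6.58 and 6.66 that overlapped with one another, and last siZNF148 at 96 h in differentiation media. The single siControl array that stood apart was the lowest siControl array in growth media.

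**Figure D1:**
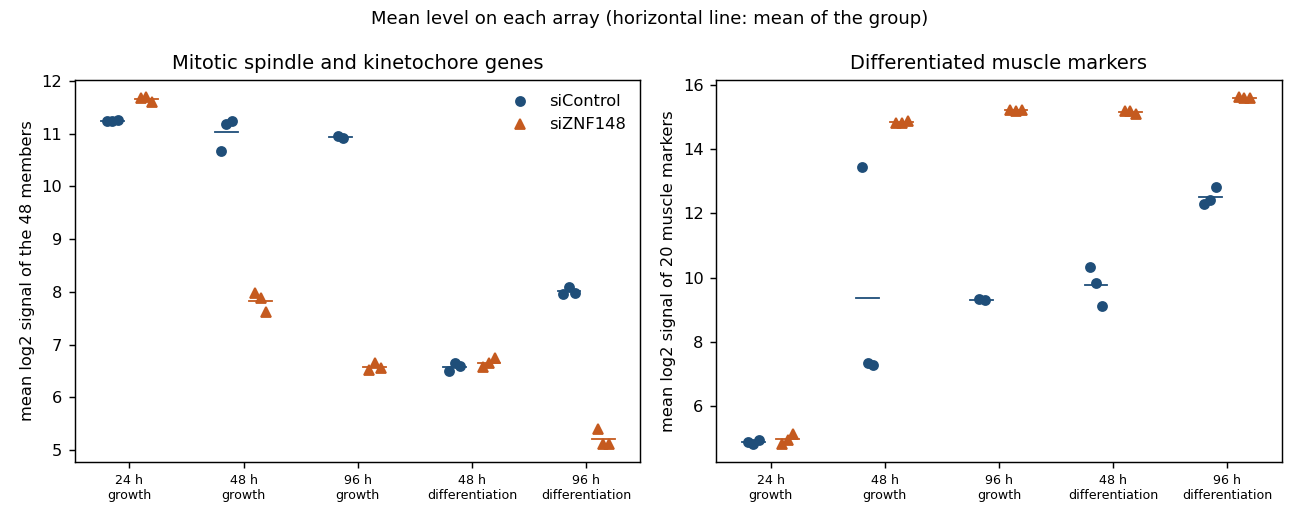
Mean log2 signal on each array of the 48 measured members (left; 47 on siControl replicate 1 at 96 h in growth media, where the ANLN spot was an outlier) and of 20 differentiated muscle markers (right), by hour and media, with circles for siControl, triangles for siZNF148 and a line for the group mean. The members lay near 11 with siControl in growth media and fell to between 7.62 and 7.99 and then to between 6.52 and 6.66 with siZNF148. The muscle markers were highest on the siZNF148 arrays after 24 h. With siControl they read 13.43 on 1 array at 48 h in growth media and 12.31 to 12.81 at 96 h in differentiation media.

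Knockdown of ZNF148 in growth media lowered nearly every measured mitotic gene at 48 and 96 h. Of 48 members, 47 fell at 48 h, where 12.3% of all genes tested were called lower, with a median log2 fold change of -3.28 over the 48 members and of -0.05 over all genes. At 96 h 47 again fell, where 12.5% of all genes were called lower, with medians of -4.80 and -0.03. They were the same 47 genes at both times, and no member rose, where 11.7% and 12.3% of all genes were called higher. The exception was KIF18B, described with the other kinesins. For all but INCENP, the log2 fold change at 96 h lay below that at 48 h, in 47 of 48 members.

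Several marker lists moved beside these falls, that of differentiated muscle most widely. Of the 20 muscle markers, 19 were called higher at 48 h and 19 at 96 h, with marker means per array of 14.83 to 14.89 with siZNF148 at 48 h and 15.19 to 15.23 at 96 h, against 9.32 and 9.31 with siControl at 96 h. Of the 5 smooth muscle and pericyte markers 4 rose at 96 h, MYH11 by 4.51 on the log2 scale, and their mean per array was 9.21 to 9.26 with siZNF148 against 7.13 and 6.70 with siControl. Of the 5 endothelial markers 2 fell, KDR with a log2 fold change of -4.47, and of the 4 leukocyte markers 1, CD14, with -4.28. Their means were 5.36 to 5.63 against 6.67 and 6.73, and 7.04 to 7.12 against 8.17 and 8.55. Of 5 epithelial markers 2 rose, CDH1 by 1.56, and of 5 fibroblast markers 1 fell, DCN, with -2.70. Of the 9 myoblast markers 3 rose and 3 fell, among the latter MET, with -2.23. Without the siControl array that stood apart, 47 members were still lower at 48 h, with a median of -3.47. On the slides that held both siRNAs, the median difference was -2.99, -3.64 and -3.46 at 48 h and -4.71 at 96 h. The part of these markers in the falls was not tested.

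The cyclins with CDK1 and its phosphatase fell in 5 of 5 members at both times, with a median of -3.16 at 48 h and -4.80 at 96 h. CCNB1, cyclin B1, which activates CDK1 for entry into mitosis, read 13.37, 13.84 and 13.94 with siControl and 10.10, 10.22 and 9.96 with siZNF148 at 48 h, and 13.34 and 13.21 against 9.20, 9.28 and 9.26 at 96 h. The groups did not overlap, and its log2 fold change went from -3.62 ± 0.12 (SE, adjusted p = 2.87e-15) to -4.03 ± 0.13 (SE, adjusted p = 2.8e-15), the smallest of its role at 96 h. CDK1, the kinase itself, read 10.90, 11.35 and 11.50 against 8.45, 8.38 and 8.09 at 48 h and 11.55 and 11.45 against 6.65, 6.77 and 6.67 at 96 h. All siZNF148 arrays were again the low ones, with log2 fold changes of -2.94 and -4.80, and a second CDK1 probe fell as well, with log2 fold changes of -2.38 and -2.66. CDC25C, the phosphatase that activates CDK1, read 8.23, 8.94 and 8.97 against 5.06, 5.68 and 4.56 at 48 h and 8.59 and 8.60 against 2.21, 2.60 and 2.76 at 96 h. On no siZNF148 array at 96 h was it well above background, so its fall there is given as at least 28.8-fold. CCNA2, cyclin A2 of S phase and early mitosis, read 9.76, 10.43 and 10.37 against 7.30, 7.26 and 7.20 at 48 h and 10.15 and 10.27 against 5.93, 5.90 and 6.02 at 96 h, and its log2 fold change of -2.93 ± 0.17 (SE, adjusted p = 1.31e-11) was the smallest of the role at 48 h. CCNB2, cyclin B2, had log2 fold changes of -3.16 and -4.81.

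Of the mitotic kinesins, the motor proteins of the spindle, 11 of 12 fell at both times, with medians of -3.11 and -4.46. KIF11, the motor that pushes the spindle poles apart, read 10.79, 11.43 and 11.35 against 8.24, 7.97 and 7.98 at 48 h and 11.35 and 11.24 against 6.85, 6.92 and 6.95 at 96 h. Its groups stood clearly apart, with log2 fold changes of -3.13 ± 0.14 (SE, adjusted p = 2.2e-13) and -4.38 ± 0.16 (SE, adjusted p = 7.2e-15). KIF20A, which acts at the central spindle, read 10.71, 11.32 and 11.27 against 8.21, 7.96 and 7.82 at 48 h and 10.59 and 10.57 against 5.73, 5.73 and 5.68 at 96 h, and fell by 3.10 and then by 4.87 on the log2 scale. KIF14, a kinesin of cytokinesis, had the largest fall of the role. It read 9.99, 10.64 and 10.87 against 6.15, 6.01 and 5.67 at 48 h and 10.27 and 10.31 against 4.47, 3.93 and 4.07 at 96 h, and fell by 4.55 and 6.13 on the log2 scale. KIF23, the kinesin of centralspindlin, read 12.60, 13.10 and 13.04 against 10.41, 10.35 and 10.21 at 48 h and 12.87 and 12.71 against 10.18, 10.24 and 10.14 at 96 h. It fell by 2.59 and 2.60 on the log2 scale, to nearly the same level at both times. The other called kinesins had log2 fold changes at 96 h between -5.20 for KIF15, a second motor that holds the poles apart, and -2.89 for KIF22, which pushes chromosome arms. Between them lay KIF4A of the central spindle (-5.17), KIF2C, which takes microtubules apart at centromeres (-4.93), the bundling motor KIFC1 (-4.54), KIF18A (-3.14) and KIF20B (-2.97). A second KIF20B probe gave -4.02 at 96 h.

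KIF18B, a kinesin that shortens microtubule ends, was not called in any comparison by the probe used here. It read 4.43, 4.55 and 4.44 against 4.78, 4.25 and 4.19 at 48 h and 3.93 and 4.48 against 3.94, 4.14 and 3.96 at 96 h, overlapping groups with log2 fold changes of -0.06 ± 0.30 (SE, adjusted p = 0.908) and -0.19 ± 0.33 (SE, adjusted p = 0.722). The 95% interval of the change at 96 h ran from -0.88 to 0.50. Its signal lay between 3.73 and 5.50 on all arrays and was well above background on at most 2 arrays of a group. A second KIF18B probe gave -0.91 at 96 h (adjusted p = 0.0407), a change of less than 2-fold. The same second probe was called lower in differentiation against growth media with siControl at 96 h (-1.25, adjusted p = 0.00812).

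All 9 measured genes of the centromere and kinetochore fell at both times, with medians of -3.52 and -4.96. NDC80, which grips the microtubule, read 12.57, 13.06 and 13.21 against 9.55, 9.57 and 9.22 at 48 h and 13.03 and 12.95 against 8.01, 8.11 and 7.95 at 96 h. The siZNF148 arrays lay close together and its log2 fold changes were -3.51 ± 0.12 (SE, adjusted p = 4.49e-15) and -4.96 ± 0.13 (SE, adjusted p = 2.02e-16). NUF2, its partner in the same complex, read 10.15, 10.62 and 10.87 against 6.24, 6.53 and 5.94 at 48 h and 10.50 and 10.38 against 4.54, 4.57 and 4.87 at 96 h, and fell most of the role at both times, by 4.31 and 5.78 on the log2 scale. CENPF, a large protein of the outer kinetochore, read 13.83, 14.27 and 14.42 against 10.84, 10.75 and 10.37 at 48 h and 14.25 and 14.12 against 9.01, 8.89 and 8.80 at 96 h. It fell by 3.52 and 5.29 on the log2 scale. CENPI, of the inner kinetochore, had the smallest fall, from 6.08, 6.83 and 6.67 to 5.20, 4.58 and 4.38 at 48 h and from 6.69 and 6.74 to 3.91, 4.47 and 4.62 at 96 h. Its log2 fold changes of -1.81 ± 0.48 (SE, adjusted p = 0.0037) and -2.38 ± 0.54 (SE, adjusted p = 0.000955) were the least precise of the role. With normexp background correction its change at 48 h was -0.78, short of 2-fold. A second CENPI probe gave log2 fold changes of -2.45 at 48 h and -3.52 at 96 h. The other members of the role lay between -5.50 for SPC25 and -3.92 for SPC24 at 96 h, both subunits of the NDC80 complex, with CENPA at -5.46, CENPE at -4.93 and CENPK at -3.98.

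The spindle checkpoint fell in 4 of 4 members, with medians of -3.81 and -4.90. BUB1B, the checkpoint protein BUBR1, read 11.02, 11.64 and 11.54 against 7.58, 7.78 and 7.40 at 48 h and 11.16 and 11.12 against 6.17, 5.96 and 6.00 at 96 h, with log2 fold changes of -3.81 ± 0.55 (SE, adjusted p = 5.01e-06) and -5.10 ± 0.61 (SE, adjusted p = 5.23e-07). BUB1, a kinase of the checkpoint, read 10.94, 11.47 and 11.57 against 7.45, 7.55 and 7.01 at 48 h and 11.12 and 11.02 against 6.30, 6.38 and 6.44 at 96 h. It had the largest fall of the role at 48 h, 3.99 on the log2 scale. At 96 h the largest was that of TTK, the kinase MPS1 that starts the checkpoint signal, which read 8.80, 9.31 and 9.59 against 5.95, 5.34 and 5.00 at 48 h and 9.42 and 9.40 against 3.22, 4.29 and 3.01 at 96 h. At that time TTK fell by 5.91 on the log2 scale, and 1 of 3 siZNF148 arrays measured it well above background. MAD2L1, MAD2, which binds CDC20, had the smallest fall at both times. It read 10.44, 10.68 and 11.02 against 8.09, 8.10 and 7.68 at 48 h and 10.74 and 10.63 against 7.55, 7.27 and 7.09 at 96 h, and fell by 2.76 and 3.38 on the log2 scale, with no overlap.

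All 6 measured mitotic kinases and passenger complex genes fell, with medians of -2.95 and -4.65. AURKB, Aurora B, the kinase of the complex, read 8.50, 8.87 and 8.87 against 6.31, 6.02 and 5.44 at 48 h and 9.05 and 8.88 against 4.20, 4.80 and 4.53 at 96 h, with log2 fold changes of -2.82 ± 0.27 (SE, adjusted p = 2.27e-08) and -4.46 ± 0.31 (SE, adjusted p = 1.44e-10). BIRC5, survivin, its partner at the centromere, read 14.39, 14.87 and 14.97 against 11.73, 11.78 and 11.50 at 48 h and 14.60 and 14.65 against 9.81, 9.83 and 9.69 at 96 h. It fell by 3.07 and 4.85 on the log2 scale, with a spread within groups that was small beside it. PBK, a kinase active in mitotic cells, read 12.33, 12.73 and 12.88 against 8.18, 8.15 and 7.64 at 48 h and 12.42 and 12.40 against 6.95, 6.86 and 6.73 at 96 h, the largest fall of the role. INCENP, the scaffold of the complex, read 8.66, 9.15 and 9.15 against 6.64, 6.87 and 6.40 at 48 h and 9.17 and 9.05 against 6.68, 7.07 and 6.87 at 96 h. Its fall was the smallest of the role and did not deepen, with log2 fold changes of -2.35 ± 0.16 (SE, adjusted p = 8.79e-11) and -2.24 ± 0.18 (SE, adjusted p = 1.07e-09). AURKA, Aurora A of the spindle poles, read 11.20, 11.73 and 11.65 against 9.15, 9.28 and 8.98 at 48 h and 11.49 and 11.35 against 8.84, 8.88 and 8.88 at 96 h, and fell by 2.39 and 2.56 on the log2 scale. CDCA8, borealin, a further subunit of the complex, fell by 3.83 and 5.17.

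The partners of the anaphase-promoting complex and securin fell in 3 of 3 members, with medians of -3.27 and -3.93. CDC20, the activator of the complex, read 10.60, 11.31 and 10.98 against 7.73, 7.62 and 7.73 at 48 h and 10.57 and 10.76 against 6.83, 6.63 and 6.73 at 96 h, with log2 fold changes of -3.27 ± 0.22 (SE, adjusted p = 1.23e-10) and -3.93 ± 0.25 (SE, adjusted p = 4.37e-11). UBE2C, its ubiquitin-conjugating enzyme, read 12.62, 13.23 and 13.03 against 9.54, 9.44 and 9.30 at 48 h and 13.11 and 13.13 against 8.12, 8.14 and 8.13 at 96 h. The siZNF148 arrays of each time lay close together and far below siControl. PTTG1, securin, the inhibitor of separase, had the smallest fall of the role, from 14.78, 15.16 and 15.39 to 12.51, 12.43 and 12.23 at 48 h and from 14.84 and 14.80 to 11.94, 11.96 and 11.78 at 96 h, by 2.72 and 2.93 on the log2 scale.

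Spindle assembly and chromosome structure genes fell in 6 of 6 members, with the lowest median of the 8 roles at 96 h, -5.30, after -3.60 at 48 h. TOP2A, the topoisomerase that untangles sister chromatids, read 11.08, 11.44 and 11.63 against 8.15, 8.05 and 7.35 at 48 h and 11.59 and 11.34 against 6.45, 6.17 and 5.65 at 96 h, with log2 fold changes of -3.53 ± 0.27 (SE, adjusted p = 7.13e-10) and -5.38 ± 0.30 (SE, adjusted p = 6.49e-12). ASPM, a protein of the spindle poles, read 11.88, 12.55 and 12.65 against 8.43, 8.45 and 8.25 at 48 h and 12.14 and 12.22 against 6.50, 6.48 and 6.38 at 96 h. It had the largest fall of the role at both times. TPX2, which nucleates spindle microtubules, had the smallest, from 12.11, 12.79 and 12.66 to 9.29, 9.32 and 9.21 at 48 h and from 12.39 and 12.28 to 8.12, 8.15 and 8.28 at 96 h, by 3.25 and 4.15 on the log2 scale. HMMR, a microtubule-binding protein, read 12.40, 12.57 and 12.69 against 8.88, 8.71 and 8.35 at 48 h and 12.34 and 12.15 against 7.07, 7.11 and 6.85 at 96 h, well apart. NUSAP1, which bundles spindle microtubules, and DLGAP5, which stabilizes kinetochore fibres, had log2 fold changes of -5.23 and -5.55 at 96 h.

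Cytokinesis genes fell in 3 of 3 members, with the highest medians of the 8 roles, -2.37 and -2.80. PRC1, which bundles the microtubules of the central spindle, read 13.01, 13.60 and 13.57 against 10.05, 9.88 and 9.68 at 48 h and 12.99 and 12.99 against 8.55, 8.80 and 8.69 at 96 h, with log2 fold changes of -3.53 ± 0.11 (SE, adjusted p = 2.5e-15) and -4.31 ± 0.13 (SE, adjusted p = 5.74e-16). ECT2, the exchange factor that activates RhoA at the cleavage furrow, had the smallest fall, from 8.90, 9.33 and 9.35 to 7.65, 7.62 and 7.45 at 48 h and from 9.13 and 9.14 to 7.10, 7.30 and 7.36 at 96 h, by 1.62 and 1.88 on the log2 scale. ANLN, anillin, the scaffold of the contractile ring, read 10.95, 11.41 and 11.53 against 9.08, 8.80 and 8.89 at 48 h. At 96 h it read 11.01 on the only siControl array with a usable spot, since the spot on replicate 1 was an outlier and was left out of the fit, against 8.32, 8.16 and 8.15 with siZNF148. Its log2 fold changes were -2.37 ± 0.14 (SE, adjusted p = 2.33e-11) and -2.80 ± 0.20 (SE, adjusted p = 3.76e-10).

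**Figure D2:**
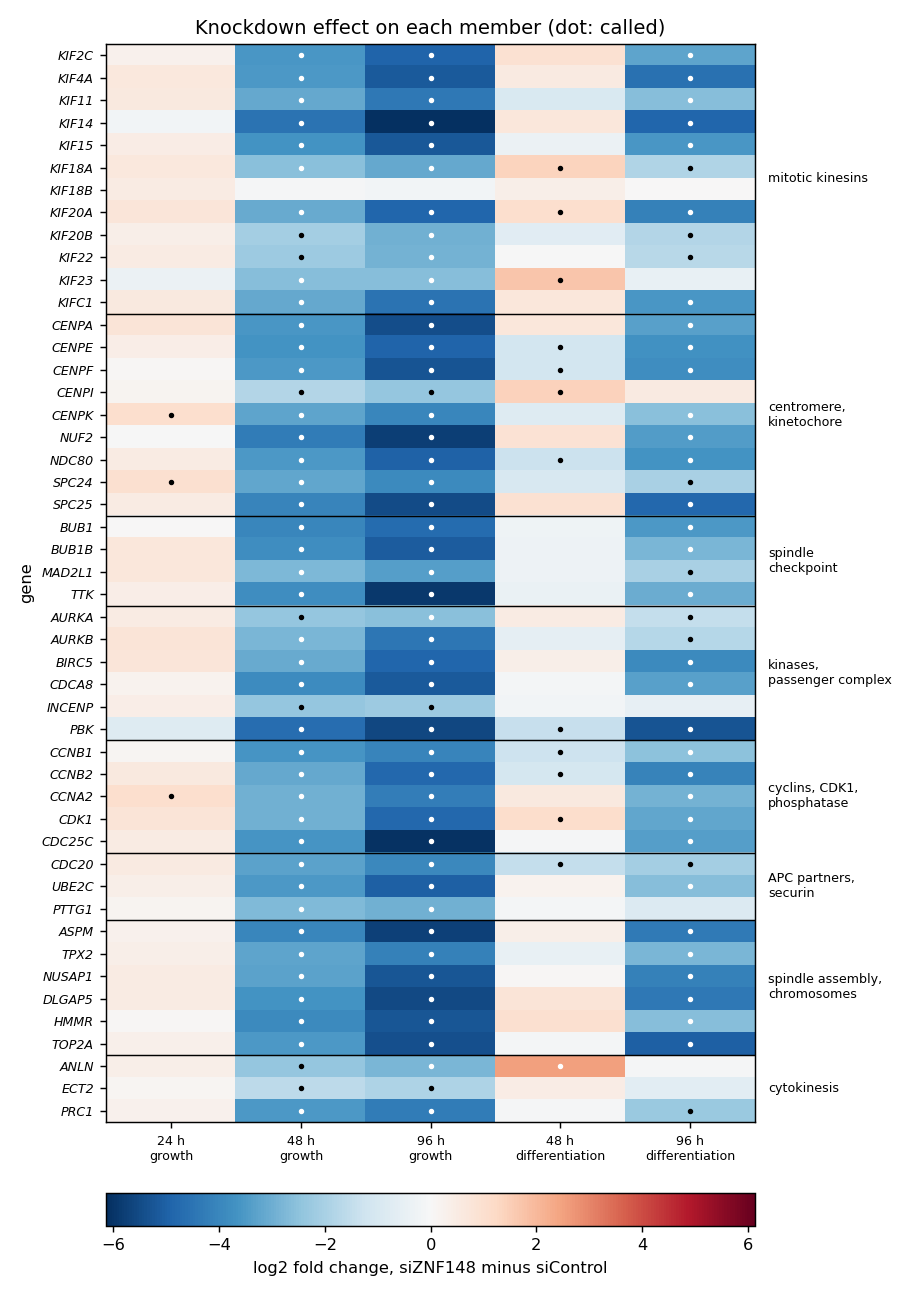
Log2 fold change (siZNF148 minus siControl) of each of the 48 measured members (rows, by role) in the 5 knockdown comparisons (columns), in blue where siZNF148 was lower and red where it was higher, with a dot where the gene was called. The columns at 48 and 96 h in growth media are blue with a dot for 47 members, whereas the column at 48 h in differentiation media holds 7 called lower and 6 called higher.

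**Figure D3:**
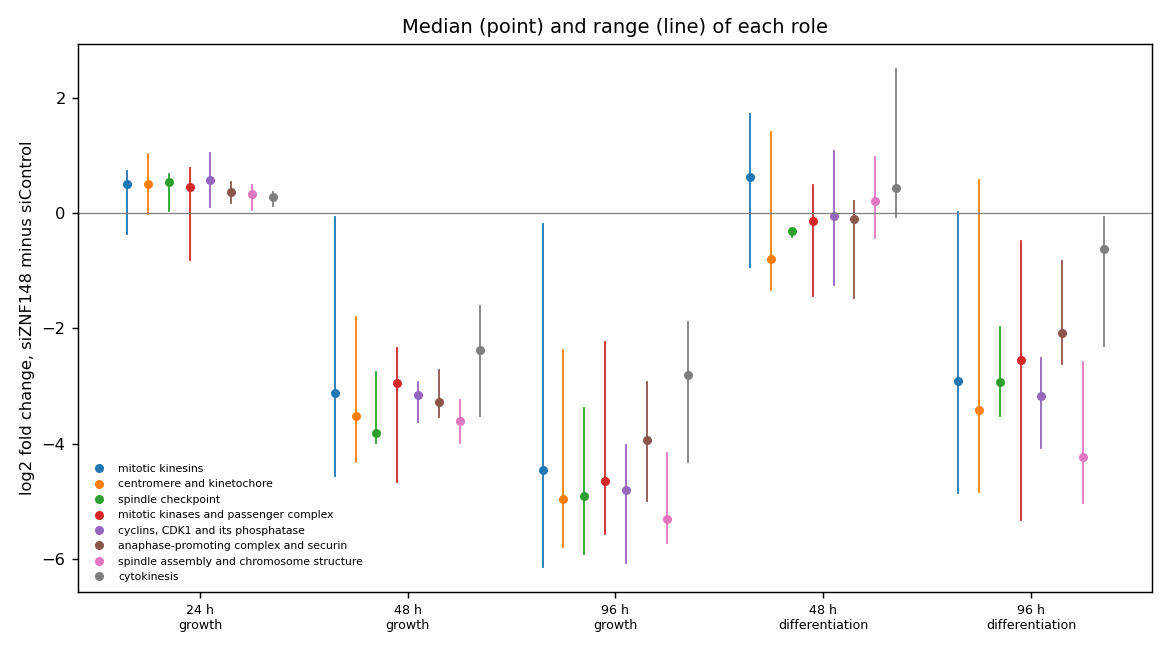
Median (point) and range (line) over the members of each of the 8 roles of the log2 fold change (siZNF148 minus siControl) in each knockdown comparison. All role medians were above 0 at 24 h and below -2 at 48 and 96 h in growth media, spindle assembly and chromosome structure genes had the lowest median at 96 h in both media, and cytokinesis genes had the highest there.

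At 24 h in growth media, before these falls, the members were slightly higher with siZNF148. Of 48 members, 3 rose by more than 2-fold and none fell, where 2.46% of all genes were called higher and 3.08% lower, and the median log2 fold change was 0.48 against -0.0008 over all genes. Without the fold threshold 16 members were called higher and 2 lower, where 15.8% and 16.8% of all genes were. In 39 members all siZNF148 arrays lay above all siControl arrays and in 3 below, where 27.9% and 27.8% of all genes showed the same.

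The members that rose were CCNA2, CENPK and SPC24. CCNA2 read 10.49, 10.41 and 10.54 with siControl and 11.59, 11.53 and 11.46 with siZNF148, an increase of 1.04 ± 0.17 (SE, adjusted p = 0.000102) on the log2 scale. CENPK, of the inner kinetochore, read 7.60, 7.64 and 7.55 against 8.76, 8.66 and 8.47, with a log2 fold change of 1.03 ± 0.29 (SE, adjusted p = 0.0126). SPC24, a subunit of the NDC80 complex, read 7.82, 7.67 and 7.75 against 8.54, 8.76 and 8.97, with 1.00 ± 0.29 (SE, adjusted p = 0.0122). In each the groups did not overlap, and all 3 genes were among those that fell at 48 and 96 h. The calls of CENPK and SPC24 lay close to the threshold of 2-fold: with normexp background correction their log2 fold changes were 0.86 and 0.81. Without siZNF148 replicate 1 CENPK gave 0.96, without siZNF148 replicate 3 SPC24 gave 0.90, and without siControl replicate 2 SPC24 gave 0.97. The limma adjusted p of SPC24 was 0.0525 without siZNF148 replicate 3 and 0.0593 with replicate as a block.

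Other members differed by less. BIRC5 read 14.82, 14.82 and 14.77 against 15.49, 15.64 and 15.47 (0.73, adjusted p = 4.76e-05), the smallest adjusted p of the members at this time. AURKB read 9.61, 9.70 and 9.75 against 10.50, 10.42 and 10.50 (0.79), and CDK1 read 11.43, 11.43 and 11.49 against 12.29, 12.25 and 12.14 (0.77). All were higher with siZNF148 on every array, but by less than 2-fold, whereas a second CDK1 probe gave 1.17 and was called. KIF20A read 11.23, 11.24 and 11.34 against 12.06, 12.01 and 11.90 (0.72), KIF11 11.52, 11.54 and 11.54 against 12.17, 12.19 and 12.02 (0.59), and NDC80 13.01, 13.00 and 13.00 against 13.54, 13.52 and 13.44 (0.50). BUB1B read 11.62, 11.62 and 11.66 against 12.31, 12.35 and 12.27 (0.68), CDC20 11.55, 11.53 and 11.60 against 12.09, 12.08 and 12.13 (0.54), and UBE2C 13.30, 13.36 and 13.27 against 13.68, 13.67 and 13.68 (0.37). These groups too were separate and the differences under 2-fold, but those of BUB1B and CDC20 had an adjusted p of 0.451 and 0.0886 and did not pass the test. The fit takes the spread of a probe from all groups together. For BUB1B these include the siZNF148 arrays at 96 h in differentiation media, which lay far apart, so its adjusted p does not measure the spread at 24 h alone.

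The differences of some other members were smaller still. CCNB1 read 13.80, 13.84 and 13.85 against 13.98, 13.97 and 13.85 (0.10), and CENPF 14.24, 14.25 and 14.18 against 14.29, 14.28 and 14.28 (0.06, 95% interval -0.27 to 0.39). TOP2A read 11.59, 11.60 and 11.64 against 12.00, 11.89 and 11.83 (0.30), and PRC1 13.29, 13.32 and 13.28 against 13.56, 13.59 and 13.56 (0.27). None of these 4 had an adjusted p under 0.05. PBK went the other way, from 12.93, 12.93 and 13.02 with siControl to 12.24, 12.13 and 12.07 with siZNF148, a log2 fold change of -0.81 ± 0.18 (SE, adjusted p = 0.0021), and so did KIF23, from 13.14, 13.14 and 13.15 to 12.80, 12.80 and 12.74, with -0.37 ± 0.12 (SE, adjusted p = 0.0344). They were the 2 members called lower without the fold threshold.

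In differentiation media at 48 h the knockdown comparison was mixed. Of 48 members, 7 fell and 6 rose, where 17.4% of all genes were called lower and 15.2% higher. Neither share of the members was above that of all genes. The median log2 fold change of the members was -0.04, against -0.05 over all genes. With scaling to the 75th percentile the median of the members was 0.07 and that of all genes 0.05. The arrays did not overlap in 12 members that were lower and 19 that were higher with siZNF148, where 37.3% and 33.1% of all genes showed the same. The muscle markers differed here too, with 19 of 20 called higher and marker means per array of 10.33, 9.83 and 9.12 with siControl and 15.11 to 15.20 with siZNF148. On the 3 slides the median difference of the members was 0.05, 0.22 and 0.01.

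The members that fell were CDC20, NDC80, CENPE, CENPF, CCNB1, CCNB2 and PBK. CDC20 read 7.65, 7.64 and 7.74 with siControl and 6.25, 6.17 and 6.18 with siZNF148, the largest fall, with a log2 fold change of -1.48 ± 0.22 (SE, adjusted p = 6.44e-06). PBK read 7.08, 7.46 and 7.35 against 5.77, 5.91 and 5.92, with -1.43 ± 0.18 (SE, adjusted p = 7.26e-07). NDC80 read 9.36, 9.45 and 9.45 against 8.04, 8.07 and 8.15, with -1.33 ± 0.12 (SE, adjusted p = 3.04e-09). In all 3 the siZNF148 arrays were the low ones and lay close together. CCNB1 read 10.04, 10.17 and 10.22 against 8.80, 8.86 and 9.01, with -1.25 ± 0.12 (SE, adjusted p = 7.7e-09), and CCNB2 read 9.25, 9.55 and 9.79 against 8.41, 8.35 and 8.55, with -1.09 ± 0.21 (SE, adjusted p = 0.000103). CENPF read 10.13, 10.59 and 10.76 against 9.35, 9.16 and 9.64, with -1.11 ± 0.16 (SE, adjusted p = 2.82e-06), and CENPE, the kinesin of the kinetochore, read 6.64, 7.08 and 7.38 against 5.80, 5.98 and 6.00, with -1.11 ± 0.19 (SE, adjusted p = 2.99e-05). These 7 were also the members that fell in all 4 comparisons after 24 h. Leaving out siControl replicate 3 brought CENPE, CENPF and CCNB2 to between -0.93 and -0.98, just short of 2-fold. With normexp background correction 4 of the 7 were no longer called, CDC20 at -0.93, CCNB2 at -0.94, PBK at -0.86 and CENPE at -0.64.

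The members that rose were ANLN, KIF23, CENPI, KIF18A, CDK1 and KIF20A. ANLN read 6.50, 6.48 and 5.96 with siControl and 8.74, 8.80 and 8.89 with siZNF148, the largest rise, with a log2 fold change of 2.50 ± 0.14 (SE, adjusted p = 3.23e-12). KIF23 read 8.63, 8.49 and 8.08 against 10.03, 10.18 and 10.12, with 1.71 ± 0.12 (SE, adjusted p = 9.12e-11). In both, the siControl arrays at 48 h in differentiation media were the lowest of all siControl arrays, while the siZNF148 arrays lay close to those at 48 h in growth media. KIF18A, which dampens chromosome movements, read 4.16, 3.98 and 3.82 against 5.10, 5.29 and 5.61, with 1.35 ± 0.21 (SE, adjusted p = 7.98e-06), and was well above background on 1 of the 3 siControl arrays. CENPI was well above background on none of them, and its difference, from 3.33, 3.48 and 3.80 to 4.95, 5.02 and 4.84, is given as at least 1.96-fold, a bound short of the threshold. A second CENPI probe gave 1.22 (adjusted p = 0.00602). KIF20A read 5.04, 5.06 and 4.98 against 5.91, 6.04 and 6.27, with 1.05 ± 0.14 (SE, adjusted p = 1.68e-06), near the threshold, and 0.95 without siZNF148 replicate 3. CDK1 read 5.90, 6.42 and 6.26 against 7.08, 7.32 and 7.43, with 1.08 ± 0.18 (SE, adjusted p = 2.76e-05), but its second probe gave 0.08 (adjusted p = 0.624). The probes of CDK1 thus disagreed, and why was not tested. Without siControl replicate 1 CDK1 gave 0.93 and CENPI an adjusted p of 0.0579. With normexp ANLN and KIF23 were the members still called higher, while CDK1 gave 0.66, KIF20A 0.52, KIF18A 0.41 and CENPI 0.30 (adjusted p = 0.103).

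The other 35 members were not called. KIF11 read 8.04, 7.97 and 8.24 against 6.92, 7.14 and 7.35 (-0.94), just short of 2-fold, and HMMR read 6.29, 6.46 and 6.07 against 7.36, 7.14 and 7.25 (0.98), just short in the other direction. BIRC5 read 9.85, 9.90 and 9.85 against 10.19, 10.11 and 10.34 (0.35), AURKA 7.54, 7.73 and 7.60 against 8.13, 8.01 and 8.20 (0.49), and AURKB 5.45, 5.43 and 5.23 against 4.63, 4.85 and 5.00 (-0.55). In each of these 5 the groups were separate. UBE2C read 7.71, 7.88 and 7.92 against 8.17, 8.06 and 7.90 (0.21), TOP2A 6.35, 6.68 and 6.66 against 6.17, 6.55 and 6.65 (-0.10), and PRC1 8.68, 8.75 and 8.66 against 8.72, 8.53 and 8.62 (-0.07). Their groups overlapped, as did those of BUB1B, which read 6.62, 6.35 and 6.01 against 6.11, 5.87 and 6.14 (-0.29), and those of TTK, which read 4.44, 3.66 and 3.96 against 3.23, 3.87 and 3.71, well above background on none of these arrays. TPX2 read 8.73, 9.09 and 9.30 against 8.57, 8.58 and 8.68 (-0.43), lower on every siZNF148 array. BUB1 read 5.87, 6.20 and 5.89 against 5.62, 5.67 and 5.82 (-0.28), also without overlap.

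**Figure D4:**
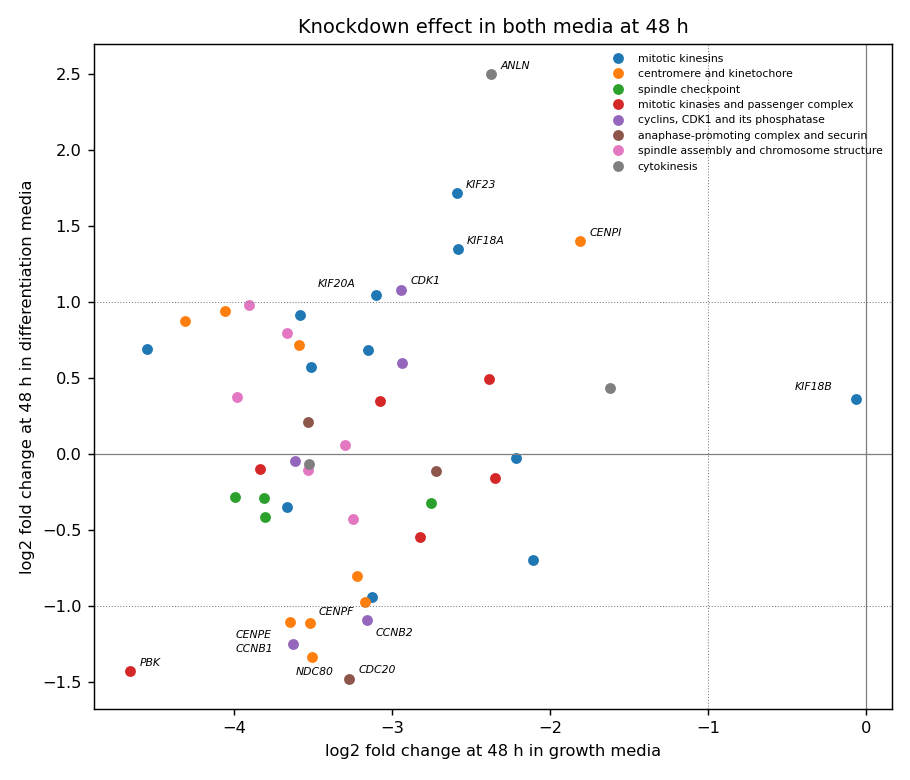
Log2 fold change (siZNF148 minus siControl) at 48 h of each of the 48 measured members in growth media (horizontal) and in differentiation media (vertical), coloured by role, with dotted lines at a change of 2-fold and names for members called in differentiation media and for KIF18B. All members but KIF18B lie left of -1, whereas on the vertical axis they spread from -1.48 (CDC20) to 2.50 (ANLN).

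At 96 h in differentiation media most members were again lower with siZNF148. Of 48 members, 41 fell and none rose, where 12.8% of all genes were called lower and 10.5% higher, with a median log2 fold change of -2.95 against -0.06 over all genes. The arrays did not overlap in 45 members that were lower, where 37.2% of all genes showed the same. All 41 were among the 47 that fell in growth media, and CDK1, KIF18A and KIF20A had been called higher at 48 h in the same media. Of the muscle markers, 12 of 20 were called higher, with means per array of 12.31, 12.41 and 12.81 with siControl and 15.58 to 15.63 with siZNF148. With siZNF148 the members lay near the floor of the arrays: 24 to 31 of the 48 were well above background on an array, and 17 were so on none of the 3. With normexp 34 members were called lower, with a median of -1.50, and CENPA, CENPK, SPC24, KIF18A, TTK, AURKB and CDC25C were not called, at -0.98 to -0.29.

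TOP2A read 8.19, 8.64 and 8.60 with siControl and 4.17, 3.40 and 2.80 with siZNF148, not well above background on any siZNF148 array, and was at least 16-fold lower. PBK read 8.64, 9.05 and 8.82 against 4.01, 3.09 and 3.47, at least 20.9-fold lower on the same ground. KIF20A read 7.84, 7.94 and 7.86 against 3.43, 3.84 and 4.00, at least 10.8-fold lower, and AURKB read 5.69, 5.86 and 5.43 against 4.00, 4.70 and 3.06, at least 2.27-fold lower. The siZNF148 values of these 4 genes have no order. The bounds were taken with each siZNF148 array set no lower than its own lowest signal well above background. With normexp AURKB gave a log2 fold change of -0.57, short of its bound of 2.27-fold, and was not called. DLGAP5 was at least 14-fold lower, SPC25 at least 9.52-fold, KIF4A at least 5.98-fold and KIF14 at least 5.63-fold.

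Genes still measured on all siZNF148 arrays gave the falls directly. BIRC5 read 11.62, 11.78 and 11.61 against 7.86, 7.61 and 7.85, with a log2 fold change of -3.90 ± 0.11 (SE, adjusted p = 2.71e-16). NDC80 read 10.09, 10.19 and 10.05 against 6.57, 6.26 and 6.44, with -3.68 ± 0.12 (SE, adjusted p = 1.25e-15), and CENPF read 11.44, 11.49 and 11.33 against 7.71, 7.58 and 7.50, with -3.82 ± 0.16 (SE, adjusted p = 4.31e-14). These falls were many times the spread within the groups. KIF11 read 8.18, 8.57 and 8.28 against 5.89, 5.63 and 5.73, with -2.60 ± 0.14 (SE, adjusted p = 2.68e-12), and UBE2C read 9.20, 9.13 and 9.19 against 6.40, 6.79 and 6.46, with -2.62 ± 0.12 (SE, adjusted p = 1.36e-13). CCNB1 read 11.00, 10.90 and 10.92 against 8.56, 8.17 and 8.57, with -2.51 ± 0.12 (SE, adjusted p = 3.31e-13), and PRC1 read 10.03, 10.17 and 10.10 against 7.76, 7.84 and 7.81, with -2.30 ± 0.11 (SE, adjusted p = 6.28e-13). None of these groups overlapped.

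Others were less even. CDC20 read 8.55, 7.80 and 8.03 against 5.68, 6.82 and 5.67, with -2.07 ± 0.22 (SE, adjusted p = 8.76e-08), and 1 siZNF148 array lay over 1 unit above the other two. BUB1B read 7.83, 7.92 and 8.01 against 7.19, 5.09 and 3.05, with -2.81 ± 0.55 (SE, adjusted p = 0.000189), and its siZNF148 arrays spanned over 4 units. In a fit of the arrays of these 2 groups alone BUB1B was not called (adjusted p = 0.0842). CDK1 read 7.72, 8.00 and 7.83 against 4.88, 4.15 and 5.02, with -3.16 ± 0.18 (SE, adjusted p = 6.14e-12), but its second probe gave -0.01 (adjusted p = 0.982).

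The 7 members that were not called were PTTG1, ECT2, KIF23, INCENP, ANLN, CENPI and KIF18B. PTTG1 read 12.40, 12.51 and 12.22 against 11.57, 11.45 and 11.62, with -0.83 ± 0.13 (SE, adjusted p = 1.71e-05), ECT2 had -0.62 ± 0.12 (SE, adjusted p = 0.000112), KIF23 -0.48 ± 0.12 (SE, adjusted p = 0.00273) and INCENP -0.48 ± 0.16 (SE, adjusted p = 0.0142). In these 4 the siZNF148 arrays were all lower, by less than 2-fold. ANLN read 7.72, 7.90 and 7.76 against 7.74, 7.73 and 7.69, overlapping groups with a log2 fold change of -0.07 (95% interval -0.36 to 0.22). CENPI read 4.17, 3.80 and 4.15 against 6.59, 3.68 and 3.56, well above background on 1 siZNF148 array and on no siControl array, and KIF18B gave 0.02. The CENPI probes differed in direction: the one used gave 0.57 and a second gave -0.88 (adjusted p = 0.0471), less than 2-fold.

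The difference between the knockdown effects in the media was tested itself, as the change in differentiation media minus the change in growth media. At 48 h 47 of 48 members were called, all with the higher value in differentiation media, where 8.15% of all genes were, and the median difference was 3.40 on the log2 scale. It ran among called members from 1.41 for KIF20B (-2.11 in growth and -0.70 in differentiation media) to 5.24 for KIF14 (-4.55 and 0.69). A second KIF20B probe gave a difference of 2.21 (adjusted p = 0.00187). NUF2 had 5.19 ± 0.27 (SE, adjusted p = 4.59e-12), HMMR 4.88 ± 0.18 (SE, adjusted p = 5.42e-14) and ANLN 4.87 ± 0.20 (SE, adjusted p = 3.79e-13). On the siControl arrays at 48 h in differentiation media KIF14 was well above background on 1 of 3 and NUF2 on 2 of 3. At 96 h 39 members were called in the same direction, where 5.57% of all genes were, with a median of 1.41. For the 17 members at the floor in siZNF148 cells, AURKB, TTK, TOP2A and PBK among them, the fall in differentiation media is cut short, which moves the difference upward, so their values are not given. Over the 23 members well above background on every usable array of the 4 groups, 21 were called, with a median of 1.52. HMMR, with 2.64 ± 0.19 (SE, adjusted p = 2.84e-09), and UBE2C, with 2.36 ± 0.18 (SE, adjusted p = 4.19e-09), were among these. At 48 h all 38 members measured in this way were called, with a median of 3.39 and the largest difference for SPC25, 4.99. KIF14 and NUF2 were not among these 38. The effect in growth media also differed between 48 and 24 h, lower at 48 h in 47 of 48 members, where 10.4% of all genes were called, with a median difference of -3.82. The 24 h cultures were subconfluent and those at 48 h confluent, so hour and density cannot be told apart, and neither can media and time since transfection between media. Without the siControl array that stood apart, the medians at 48 h were 3.59 between media and -3.99 between times, with 47 members called in each.

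The media were also compared within each siRNA, with siControl first. At 48 h 47 of 48 fell in differentiation against growth media, where 8.25% of all genes were called lower, with a median log2 fold change of -4.76. At 96 h 47 fell, where 8.27% of all genes were, with a median of -2.98. SPC25, of the NDC80 complex, had the largest fall at both times among members well above background on all arrays compared, 6.70 and 4.00 on the log2 scale. ANLN fell by 4.98 and 3.22, and KIF20B, a kinesin of late mitosis with the smallest called fall at 48 h, by 1.49 and 1.56. The siControl levels at 48 h in differentiation media, against which siZNF148 was compared there, were thus low themselves. For siZNF148 cells, in which the members were low in growth media, 33 fell at 48 h, where 2.85% of all genes did, with a median of -1.37, and 29 at 96 h, where 4.94% did, with a median of -1.43. Among members well above background on all arrays compared, 29 of 41 fell at 48 h, with PBK the largest fall, 2.13 on the log2 scale, and 10 of 23 at 96 h, with BIRC5 the largest, 2.00. SPC25, at the floor at 96 h in differentiation media, was at least 3.38-fold lower there. With normexp background correction 17 and 8 of all 48 members were called lower at 48 and 96 h, against 33 and 29, and their medians were -0.80 and -0.52.

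Between 48 and 96 h the siControl cells were compared within each medium. In growth media no member was called by limma, where 0.0327% of all genes were called lower and 0.404% higher, and 4 members were lower at an unadjusted p under 0.05, with a smallest adjusted p of 0.111. The methods' t-test called none either, and the median difference was -0.11, or -0.27 without the array that stood apart. In differentiation media 30 members rose from 48 to 96 h, where 5.76% of all genes did, with a median of 1.54. Of the 38 members well above background on all arrays compared, 24 rose. With normexp background correction 22 members rose, with a median of 0.94. CENPA went from 2.17, 3.00 and 3.01, not well above background, to 6.08, 6.20 and 6.49, KIF14 from 4.18, 3.97 and 3.46 to 6.82, 7.19 and 6.83, and ASPM from 6.83, 6.85 and 6.64 to 9.09, 9.29 and 9.28. All siControl arrays at 96 h were above those at 48 h for these genes, and at 48 h KIF14 was well above background on 1 of 3. CDC20, with 7.65, 7.64 and 7.74 at 48 h and 8.55, 7.80 and 8.03 at 96 h, was not called. The muscle marker mean of the siControl arrays was higher at 96 than at 48 h as well, and its part in the rise was not tested.

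**Figure D5:**
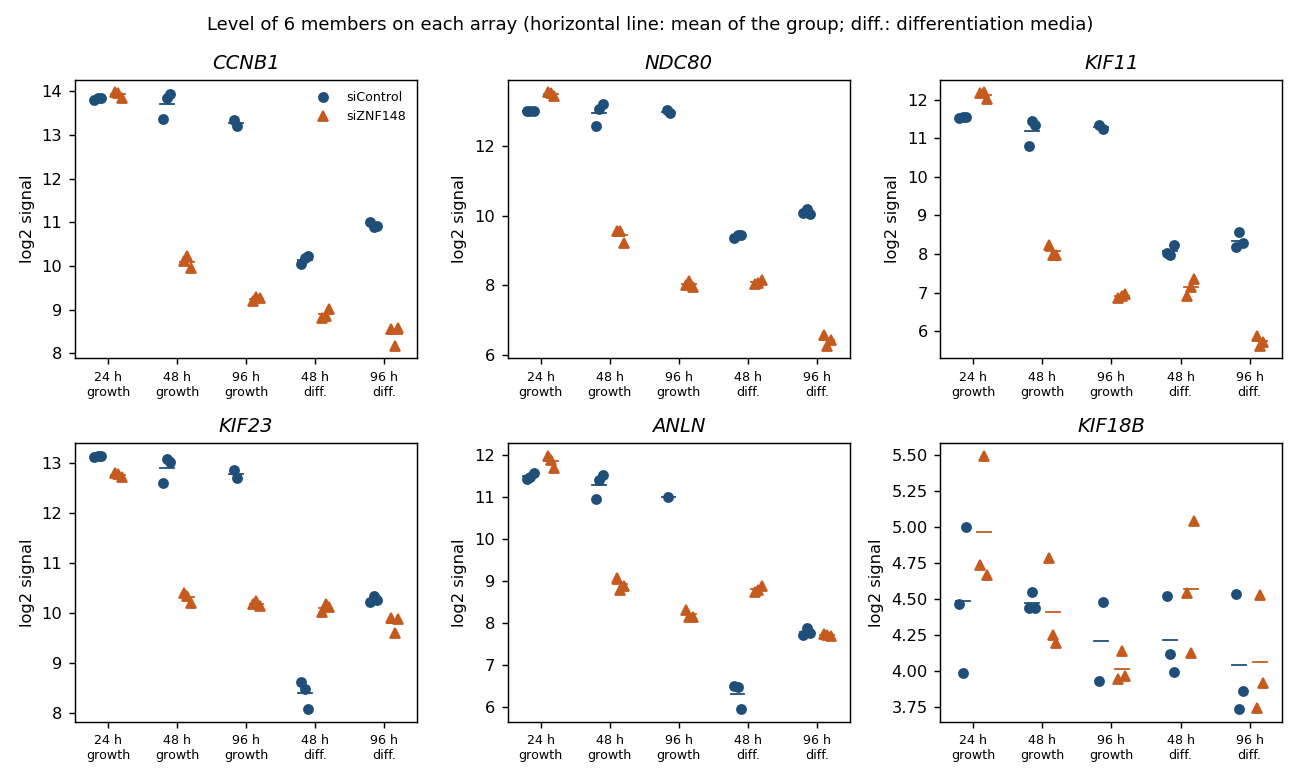
Log2 signal of 6 members on each array by hour and media, with circles for siControl, triangles for siZNF148 and a line for the group mean (the vertical scales differ). CCNB1, NDC80 and KIF11 were lower with siZNF148 in every group pair after 24 h, KIF23 and ANLN were higher with it at 48 h in differentiation media, and KIF18B stayed between 3.73 and 5.50 with overlapping groups.

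Related genes were read from lists that the members are not part of. Of 76 other mitotic genes tested, such as further kinetochore, condensin and cohesion proteins, 60 fell at 48 h in growth media and 61 at 96 h, where 12.3% and 12.5% of all genes did. None rose, where 11.7% and 12.3% of all genes did, and the medians of the list were -2.14 and -2.55. NEK2, a centrosome kinase, had the largest fall at 96 h, -5.89 ± 0.29 (SE, adjusted p = 9.14e-13), followed by HJURP, the chaperone of CENPA, with -5.44, and the condensin subunit NCAPG, with -5.16. In differentiation media 15 of the 76 fell and 6 rose at 48 h, where 17.4% and 15.2% of all genes did, with a median of -0.13. At 96 h 40 fell and 1 rose, where 12.8% and 10.5% of all genes did, with a median of -1.17. At 24 h 2 rose, near the share of all genes (2.46%), with a median of 0.45. Of 15 further genes of the anaphase-promoting complex, its core subunits and the activator FZR1, none fell in any of the 5 comparisons. At 48 h in differentiation media 1 rose, where 15.2% of all genes did. The medians of these 15 genes at 48 and 96 h in growth media were 0.16 and 0.06. Of 24 tested kinesins and light chains outside the members, which mostly carry cargo along microtubules, 3 fell and 6 rose at 48 h in growth media. Of all genes 12.3% and 11.7% did. In this list 2 fell and 5 rose at 96 h, where 12.5% and 12.3% of all genes did. At 96 h KIF3C and KIF7 fell, with -1.18 and -1.16, and KIF1B, KIF6 and KIF1A had the largest rises, with 2.11, 1.91 and 1.29.

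Over the 10 group means of log2 signal, the genes outside the list that followed the mean of the members most closely were SKA3 and SPAG5 (Pearson r of 0.998 each), GTSE1 (0.997), SHCBP1 (0.996) and FANCD2 (0.996). These coefficients describe 10 group means that share their arrays. Of the members, CDCA8 was closest to their mean (0.999). KIF18B (0.595), CENPI (0.896), ANLN (0.912), KIF23 (0.925) and KIF20B (0.951) were the least close.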

How the data were processed

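Total RNA of LHCN-M2 cells was hybridized to 29 1-colour Agilent arrays, and the labels gave each array its siRNA, hour and media and call the replicates biological. The authors deposited background-subtracted spot intensities extracted by Agilent Feature Extraction 10.7.3.1, and a matrix of quantile-normalized log2 values that was used here to choose the probe of a gene and as an alternative. Of the headers, 14 name hg19 and 15 no build. Each matrix column matched its own array best (correlation across probes of at least 0.9951).

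Control spots (2075 of 62976) and outlier spots were dropped, intensities were log2-transformed and averaged over the spots of each of 58201 probes, and quantile normalization over all arrays followed. Probes had to be well above background on 2 or more arrays, and the 38714 that were entered the test in R 4.3.3 with limma 3.58.1 (lmFit and eBayes, two-sided) in 1 fit of 10 group means, with Benjamini-Hochberg adjustment over all probes tested. Differences between effects were contrasts of contrasts in that fit. RefSeq accessions named 31104 probes of 22439 genes. Where a gene was not well above background on any array of a group, its fold is a bound, with each array of that group set no lower than its own lowest signal that was well above background. Promoters came from a GRCh38.p14 table. The fit was tested on simulated data. The number of arrays limits the precision.

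Members and lists were chosen with earlier results of these data known. Values on every array were given for 13 members listed by function and for the members of each role with the largest and the smallest change in 3 knockdown comparisons. In the knockdown comparisons, every member called higher, or not called where most were, was named. From each related list the 3 largest called falls and rises at 96 h in growth media were named. Replicate numbers did not pair the samples: over 14 pairs of equal number, deviations from the group means correlated between -0.14 and 0.12. Numbers were those of the titles. The descriptions number the siZNF148 arrays at 48 h in growth media 3, 4 and 5, so equal numbers are in doubt there. The other settings tried were normexp (offset 50), scaling to the 75th percentile, the authors' values, no filter and a stricter one, trended and robust variances, array weights, slide or replicate as a block, a fit of the groups compared only, no fold threshold, the methods' t-test, second probes, and leaving out arrays.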

Additional observations from a re-analysis of the deposited data

Results flagged for a closer look

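A knockdown effect that differed between conditions, by a test of the difference itself as a contrast of contrasts in limma, was found for most members in each of 3 pairs of comparisons. Between differentiation and growth media at 48 h the effect differed in 47 of 48 members, with a median difference of 3.40 on the log2 scale. Between the media at 96 h it differed in 39 members, with a median of 1.41. There 17 members were well above background on no siZNF148 array in differentiation media, which cuts their fall short and moves the difference upward, and of the 23 well above background on every usable array compared 21 were called, with a median of 1.52. Between 48 and 24 h in growth media it differed in 47 members, with a median of -3.82. The media may differ in the time since transfection at the same hour, and the 24 h cultures differ in density and slide, which cannot be told apart from media and hour. The part of these in the differences was not tested.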

How the results depend on the processing

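Of the counts of called members over 14 comparisons, 296 under an alternative stayed within 1.5 times the reported count and 6 did not. None reversed direction, but the knockdown comparison at 48 h in differentiation media was not judged for this. There 7 members were called lower and 6 higher as reported, whereas with no fold threshold more were called higher than lower. With normexp background correction 1 member was called at 24 h (3 as reported), 5 at 48 h in differentiation media (3 lower and 2 higher, against 13), and 17 and 8 between media in siZNF148 cells at 48 and 96 h (33 and 29). With no fold threshold 18 were called at 24 h and 31 at 48 h in differentiation media. The cause was not tested. The replicate block gave 2, 47, 47, 13 and 41 called members in the 5 knockdown comparisons (24, 48 and 96 h in growth media, 48 and 96 h in differentiation media) and moved no count by more than 1.5 times. Leaving out 1 array at a time gave 2 to 3, 47 to 47, 46 to 47, 10 to 16 and 41 to 41 in the same order, 47 to 47 and 35 to 41 for the differences between media at 48 and 96 h, and 46 to 47 for that between 48 and 24 h. Normexp also took the median at 96 h in differentiation media from -2.95 to -1.50. Signal over background limits the values in siZNF148 cells at 96 h in differentiation media, where 17 members were well above background on no array.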
